A study of Mus musculus with 12 samples.

Results

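The nuclear genes of the mitochondrial respiratory chain and of the ATP synthase were described in plasma cells of 2 genotypes. The genes were chosen by symbol: those starting with Nduf followed by a, b, c, s or v, the Sdh genes of complex II, those starting with Uqcr, the Cox genes of subunits 4 to 8, and those starting with Atp5. The rule found 89 of 19938 genes that had a probe set naming only that gene, and where a gene had several, the brightest of them on average was used. By complex these were 6 core and 28 accessory subunits of complex I, 7 complex I assembly factors (Ndufaf genes), 4 genes of complex II, 8 of complex III, 11 of complex IV, 17 of complex V, and 8 isoforms known from other tissues. A total of 88 passed the filter on low values, and only Cox7b2, a testis isoform of complex IV, did not, with a mean log2 value of 4.23. The symbols Cox7c, Ndufb4, Ndufb4b and Ndufs5-ps lay only on probe sets that also name another gene and were left out.

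The 12 arrays, 1 per sample, came from donor plasma cells of the bone marrow, 6 wild-type and 6 with a germline deletion, Zbtb32-/-. In both groups splenocytes of CD45.2 mice immune to NP-CGG, a hapten on a carrier protein, had been given to CD45.1 recipients, which were then challenged, and cells were taken 7 days later. All samples were sorted as cells that bound NP and carried CD138+ and CD45.2+, and that were B220-, Ly6g-, CD11b- and, for the recipients' allele, CD45.1-. Zbtb32 is a BTB zinc finger transcription factor. Replicates carry the numbers 1 to 6 in each genotype. Replicates 1 to 3 and replicates 4 to 6 were also compared, a split that the labels do not name as a batch and that was proposed with results of these data known.

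Complexes I to IV pass electrons from NADH and succinate to oxygen and, except for complex II, pump protons across the inner mitochondrial membrane. Complex V, the ATP synthase, lets the protons flow back and makes ATP. Core subunits hold the redox centres or the catalytic sites, accessory subunits surround and stabilise them, and assembly factors help to build a complex without staying in it. A few subunits of complexes I, III, IV and V are encoded in the mitochondrial genome, and all others come from nuclear genes. Plasma cells, which secrete antibody continuously, are known to rely on mitochondrial respiration.

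Values are log2 RMA values per probe set, so a difference of 1 is a 2-fold change. Precision is limited by how many arrays there are. Array medians lay between 6.28 and 6.43. Zbtb32 itself read 6.67 ± 0.16 on wild-type arrays and 6.56 ± 0.10 on Zbtb32-/- arrays (SD, n = 6 each). Which exons the deletion removes is not stated in the labels, and the reading therefore checks no label. All 8 plasma cell markers were above the filter, led by Jchain (mean 13.65) and Xbp1 (13.02). Transcripts of other cells were present in all samples in spite of the sort: the neutrophil genes S100a9 and Ngp had means of 12.55 and 12.25, the B cell genes Pax5 and Ms4a1 9.38 and 8.75, and the macrophage genes Lyz2 and C1qa 9.93 and 8.96. In such bulk samples fewer cells of a type and less RNA per cell cannot be told apart.

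Most members had bright probe sets. Of the 88 tested, 66 lay in the top decile of probe sets by mean value, which began at 9.37, and the genes of that decile are given below as a background of like brightness. The other 22 were the 7 tested isoforms, all 7 complex I assembly factors, 5 accessory subunits and 1 core subunit of complex I, Sdhd of complex II and Atp5g2 of complex V. Probe sets differ in how well they bind, so these values do not order the genes by transcript level. Within genes, the steadiest members over the 12 arrays were the complex IV subunit genes Cox7b (SD 0.066) and Cox6a1 (SD 0.097) and the testis isoform Cox8c (SD 0.10), leaving out the untested Cox7b2. The widest were Uqcr11, a small subunit of complex III (SD 0.48), Atp5d, the delta subunit of the ATP synthase head (SD 0.41), and Ndufaf2, an assembly factor that is bound to a late intermediate of complex I (SD 0.40).

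The subunits varied together from array to array, whichever complex they belong to. Over the 74 general subunits (complexes I to V without isoforms and assembly factors) the mean value on the arrays of wild-type replicates 1 to 6 was 10.68, 10.49, 10.91, 10.38, 10.49 and 10.52. On those of Zbtb32-/- replicates 1 to 6 it was 10.78, 10.80, 10.86, 10.76, 10.71 and 10.41. Wild-type 3 was the highest array and wild-type 4 and Zbtb32-/- 6 the lowest, so both genotypes held arrays at the low end. With the median of the tested genes on each array taken off, Zbtb32-/- 3 (3.724) was highest, just above wild-type 3 (3.719). Wild-type 4 (3.3269) and Zbtb32-/- 6 (3.3275) were again the lowest. Counted by gene, 73 of the 74 subunits were below their own mean over the arrays on wild-type 4, 71 on Zbtb32-/- 6 and 68 on wild-type 5, against 0 on wild-type 3 and 1 on Zbtb32-/- 2. Of all genes tested, 53.0%, 56.1% and 62.0% were below their own mean on the first 3 of these arrays, and 44.4% and 44.9% on the other 2. Genes of like brightness were not counted by array, so whether this swing was particular to the subunits was not tested.

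**Figure D1:**
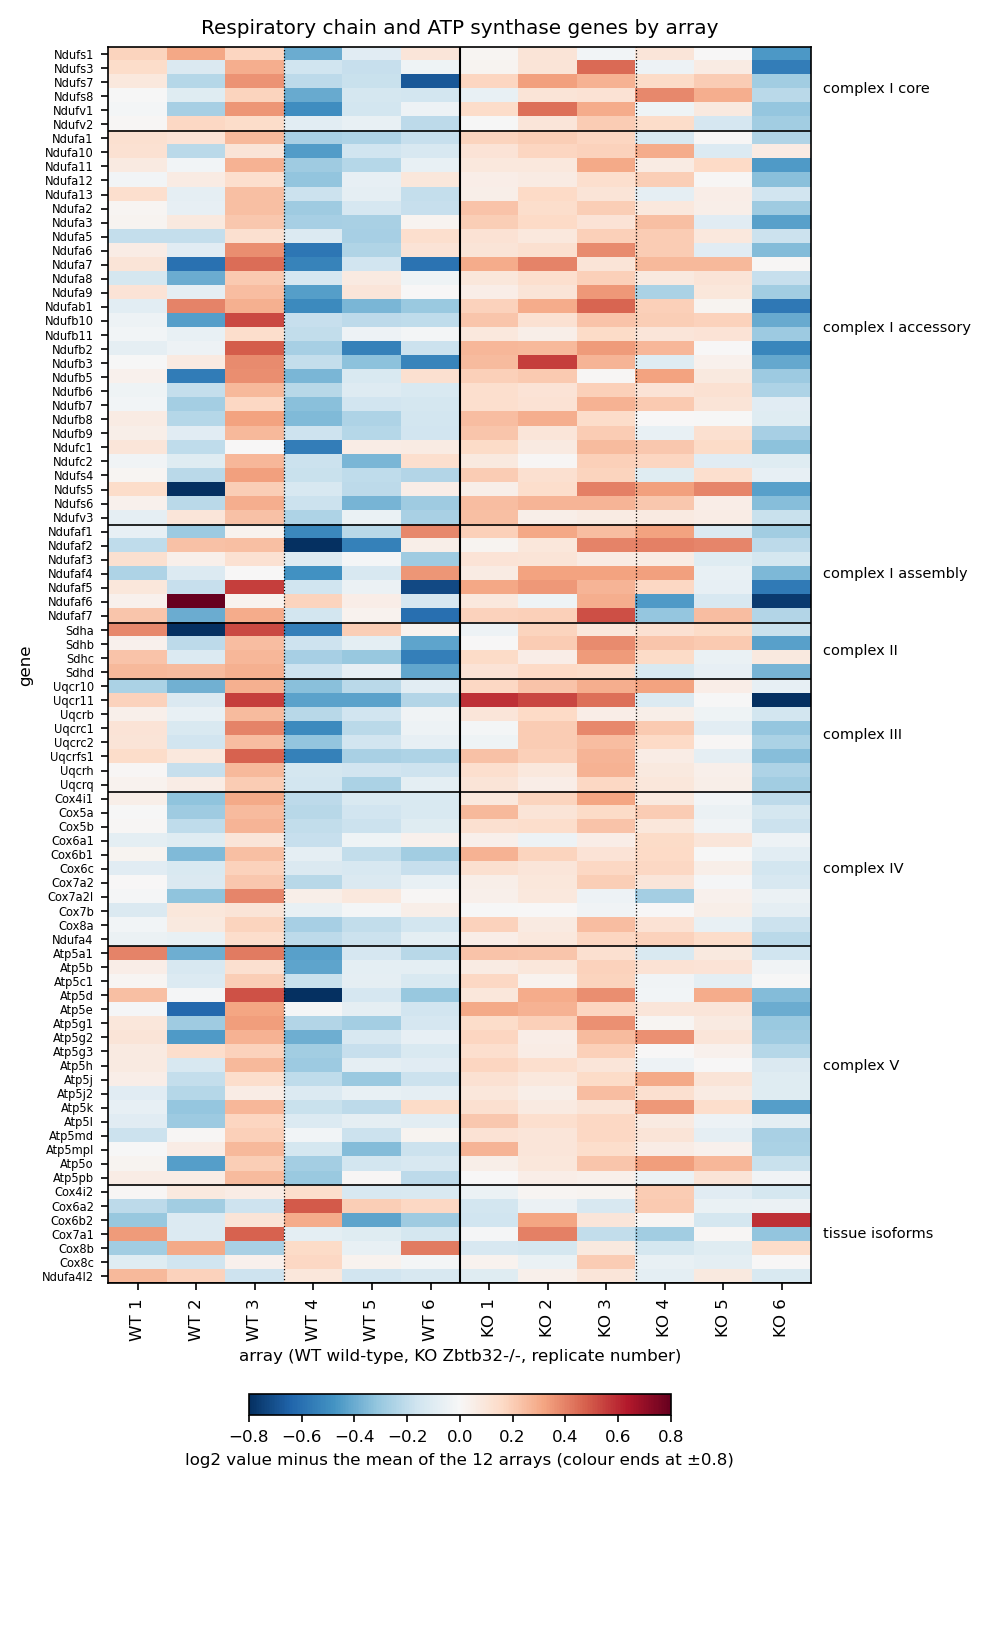
Each row is a tested member and each column an array, coloured by the log2 value minus the gene's mean over the 12 arrays, with classes separated by lines and the replicate sets by dotted lines. Wild-type 4 and Zbtb32-/- 6 are low across all complexes and wild-type 3 is high. The 7 tissue isoforms as a group do not follow them, although Cox7a1 was highest on wild-type 3 and lowest on Zbtb32-/- 6.

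The complexes differed in how wide this swing was. From the lowest to the highest array the mean of complex II ran from 9.50 on wild-type 6 to 10.17 on wild-type 3. The mean of complex III ran from 10.60 on wild-type 4 to 11.27 on wild-type 3, and that of the complex I core from 9.41 on Zbtb32-/- 6 to 10.01 on wild-type 3. The 11 genes of complex IV had the narrowest range of the 5 complexes, from 11.39 to 11.76. The 7 complex I assembly factors, which are not part of the finished complex, followed the subunits, with 7.35 on Zbtb32-/- 6 and 8.01 on Zbtb32-/- 3. The mean of the isoforms did not: it was highest, 6.55, on wild-type 4, where the subunits were lowest.

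**Figure D2:**
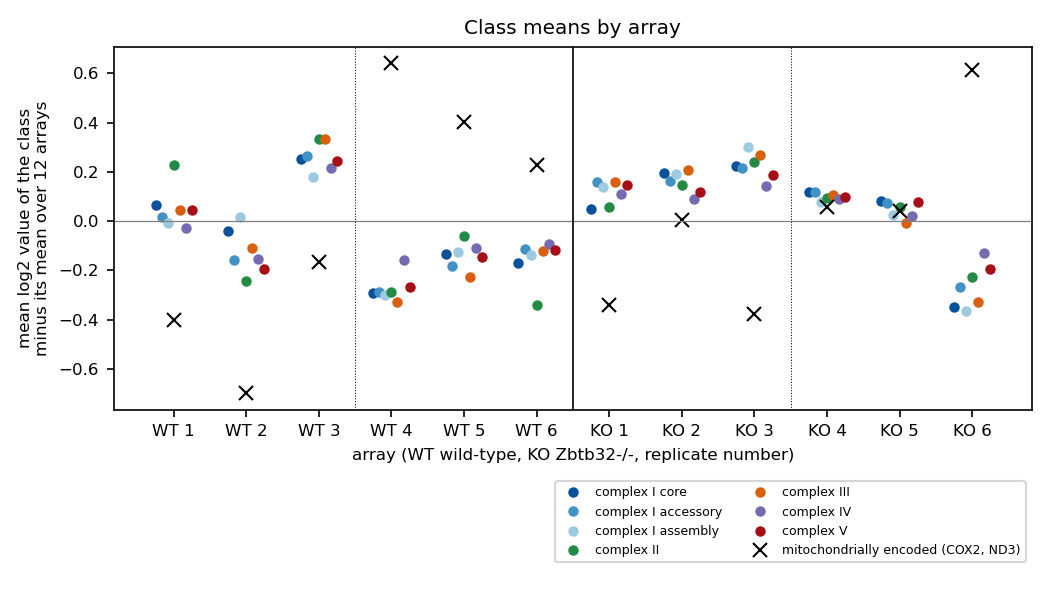
Mean log2 value of each class on each array, minus the class mean over the 12 arrays; coloured points are nuclear classes and crosses the mean of the mitochondrially encoded COX2 and ND3. The nuclear classes move together, and the crosses are highest on wild-type 4 and Zbtb32-/- 6, where the nuclear classes are low.

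The values of markers of other cells differed between the arrays too. An other-cell mean was taken over the neutrophil, monocyte and macrophage, erythroid, and T and NK cell lists, each list weighing the same. B cell and basophil and mast cell markers were not in it. This other-cell mean was highest on Zbtb32-/- 6 (8.68), wild-type 4 (8.23), wild-type 5 (8.18) and wild-type 6 (8.11). The mean of the 8 plasma cell markers was lowest on wild-type 4 (10.75) and Zbtb32-/- 6 (10.86). Wild-type 2 had low subunits (57 of 74 below their mean) with the lowest other-cell mean, 6.71. Zbtb32-/- 2 and wild-type 3 had high subunits and other-cell means of 8.02 and 7.96. The part of these cells in the subunit values was not tested.

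The comparison of the genotypes asks whether loss of Zbtb32 alters these transcripts in recall plasma cells. No member differed between the genotypes after adjustment with limma: 0 of 88 were called, against a background of 0% of the 14993 genes tested, and the smallest adjusted p of a member was 0.933. The differences nevertheless leaned to 1 side. Zbtb32-/- minus wild type was positive for 78 of 88 members, with a median of 0.13, where 7926 of 14993 genes were positive with a median of 0.012. Genes of like level leaned the same way: in the top decile of genes by level 84.6% were positive with a median of 0.13, and the 66 members in it also had a median of 0.13. At an unadjusted p under 0.05 there were 7 members, all positive, a share of 7.95% against 4.28% of all genes. Of all 642 genes at that p, 425 were positive. The share at that p was not taken for genes of like level.

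By complex, the lean was alike. All 28 accessory subunits of complex I were positive (median 0.15), as were all 8 genes of complex III (0.12) and all 17 of complex V (0.16). Of the complex I core 5 of 6 were positive (0.11), of complex II 3 of 4 (0.15), of complex IV 9 of 11 (0.13) and of the assembly factors 6 of 7 (0.20). Only 2 of the 7 tested isoforms were positive (median -0.028). The isoforms lay in deciles 1 to 6 of genes by level, with decile 1 the lowest. Of all genes in each of those deciles 27.8% to 56.1% were positive, with medians from -0.052 to 0.026. Accessory subunits of complexes I and III together had a median of 0.14 and the core subunits of complexes I to III 0.12. Within complex V the median was 0.18 for the 5 genes of the F1 head and central stalk, 0.17 for the 3 genes of the c ring and 0.12 for the 9 genes of the peripheral stalk and membrane part. No difference between classes was tested.

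**Figure D3:**
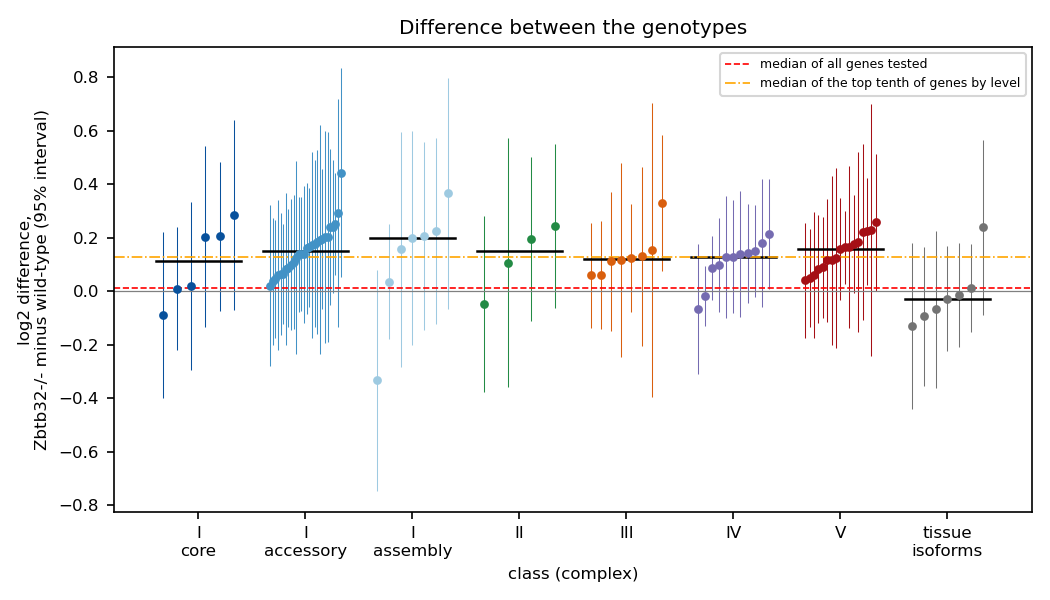
Log2 difference, Zbtb32-/- minus wild type, of each tested member with its 95% interval (limma), ordered within its class; black lines are class medians and dashed lines the medians of all genes and of the top decile by level. Most points lie slightly above 0, close to the median of the top decile, and no member passed the adjusted threshold.

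Averaged over the general subunits, the genotypes overlapped widely: wild-type arrays averaged 10.58 ± 0.19 and Zbtb32-/- arrays 10.72 ± 0.16 (SD, n = 6 each). Within replicates 1 to 3 the members' median difference was 0.11 and within replicates 4 to 6 it was 0.14, with 77 and 78 of 88 positive. Without wild-type 3, the array with the highest subunit values, the median over the members was 0.20, and after renewed quantile normalization it was 0.065, with 69 of 88 positive. The markers of neutrophils, all 11 with positive differences, ranged over the arrays from 7.99 to 11.29 in wild-type and from 9.24 to 12.44 in Zbtb32-/- cells, with 6 of 11 positive within replicates 4 to 6. Erythroid markers were positive in 9 of 9 cases, while 8 of 9 monocyte and macrophage, 7 of 8 T and NK cell, 5 of 7 B cell and 3 of 3 basophil and mast cell markers were negative, and 5 of 8 plasma cell markers were positive. No marker was called, and their part in the lean was not tested. In no member did the values of the 2 genotypes lie apart.

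Among the members with the smallest p, values are given without a call. Ndufb7, an accessory subunit at the intermembrane side of complex I, gave 11.86, 11.61, 12.04, 11.55, 11.73 and 11.74 in wild-type replicates 1 to 6. In the Zbtb32-/- replicates it gave 12.02, 11.995, 12.16, 12.09, 11.98 and 11.79. All 6 knockout arrays lay above the wild-type mean, yet wild-type 3 lay above 4 of them. The difference was 0.25 (SE 0.09, limma, unadjusted p = 0.0139, adjusted p = 0.933).

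Uqcr10, a small subunit of complex III, ran from 10.47 to 11.14 in wild-type cells and from 10.79 to 11.18 in Zbtb32-/- cells, a difference of 0.33 (SE 0.12). The gap came from 5 wild-type arrays between 10.47 and 10.77, with wild-type 3 among the knockout values. Ndufa7, an accessory subunit of complex I, had the most positive difference of all members, 0.44 (SE 0.18), with wild-type values from 7.55 to 8.59 and knockout values from 8.15 to 8.54. Its wild-type arrays were spread over a far wider range (SD 0.43) than its knockout arrays (SD 0.14). In complex V, Atp5j2, the f subunit of the membrane part, differed by 0.16 (SE 0.06), Atp5j, the F6 subunit of the peripheral stalk, by 0.22 (SE 0.09) and Atp5o, the OSCP subunit that ties the stalk to the head, by 0.26 (SE 0.12). Cox6b1, a complex IV subunit facing the intermembrane space, differed by 0.21 (SE 0.10). Their adjusted p was 0.933 with limma in each case.

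The widest differences of the other classes had wide errors too. Of the assembly factors, Ndufaf2 differed by 0.37 (SE 0.20) and Ndufaf6, a factor needed early in complex I assembly, by -0.33 (SE 0.19). For Ndufaf6 the wild-type 2 array, at 7.77, lay far above the other wild-type arrays (6.81 to 7.12), and without it the difference was -0.20. In the complex I core, whose subunits carry the flavin and the iron-sulfur clusters, Ndufs7 differed by 0.28 (SE 0.17), Ndufs8 by 0.21 (SE 0.13) and Ndufv1 by 0.20 (SE 0.16). The differences of the other core subunits were nearer 0: Ndufs3 gave 0.018, Ndufv2 0.0099 and Ndufs1, the largest iron-sulfur subunit, -0.089 (SE 0.14). In complex II, which oxidises succinate, the membrane anchors Sdhc and Sdhd gave 0.24 (SE 0.14) and -0.049 (SE 0.15), and in complex IV Cox7a2l, a factor of supercomplexes, gave -0.067 (SE 0.11).

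Genes next to the members in the pathway were alike in having no call between the genotypes. Of 37 assembly factors of other complexes 30 were positive with a median of 0.15, and of 18 electron carriers and entry points 13 with a median of 0.13. Cycs, the cytochrome that carries electrons from complex III to complex IV, differed by 0.14. Its difference turned to -0.10 when all its probe sets were averaged. Cyc1 differed by 0.18 and encodes cytochrome c1, a core subunit of complex III that the symbol rule does not take. The core subunits of complexes I to III counted here therefore leave Cyc1 out. Of 18 tested regulators of respiratory genes 12 were positive (median 0.070), led by Gabpb1, a subunit of the ETS-type factor GABP, at 0.57 (unadjusted p = 0.0104, adjusted p = 0.933, limma). The assembly factor of complex IV with the smallest p was Cox10, which makes heme O, at 0.34. Of 8 hypoxia targets 5 were positive, and Slc2a1, a glucose transporter, gave 0.41 while Ankrd37 gave -0.47.

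Between the replicate sets, a few members were lower in replicates 4 to 6. With limma and genotype in the model, 6 of 88 members were called lower, a share close to the background of 4.47% called lower among all 14993 genes, and 0 were called higher, where the background is 2.05%. In the top decile of genes by level 12% were called lower. The difference was negative for 82 of 88 members, with a median of -0.19, against -0.063 over all genes and -0.18 over the top decile by level. It lay on the same side in each genotype, with a median of -0.22 in wild-type and -0.17 in Zbtb32-/- cells, but with 3 against 3 arrays 0 members were called in either. After renewed quantile normalization the median was -0.10, with 74 members negative.

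The called members came from 4 of the 5 complexes, and none from complex IV. The medians were -0.28 for the complex I core, -0.21 for its accessory subunits, -0.26 for its assembly factors, -0.27 for complex II, -0.21 for complex III, -0.14 for complex IV and -0.15 for complex V. Core subunits of complexes I to III had a median of -0.30, and accessory subunits of complexes I and III -0.21. The isoforms stood at 0.015, and the medians of all genes in deciles 1 to 6 by level, where the isoforms lay, ran from 0.039 to -0.111. These medians are descriptions, and their differences were not tested.

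**Figure D4:**
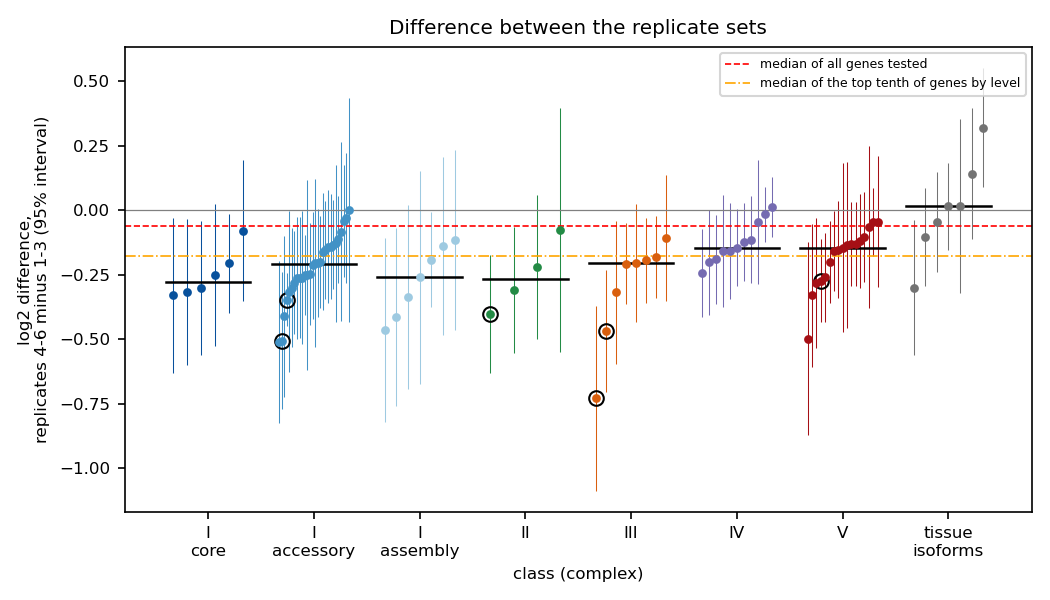
Log2 difference, replicates 4 to 6 minus replicates 1 to 3, of each tested member with its 95% interval (limma), ordered within its class; black lines are class medians, dashed lines the medians of all genes and of the top decile by level, and rings mark the 6 called members. Nearly all points lie below 0 and around the median of the top decile.

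Ndufa1, an accessory subunit of the membrane arm of complex I, was the member with the smallest adjusted p. In replicates 1 to 3 it gave 12.86, 12.84 and 12.99 in wild-type and 12.91, 12.92 and 12.90 in Zbtb32-/- cells, and in replicates 4 to 6 it gave 12.47, 12.48 and 12.54, and 12.60, 12.74 and 12.49. The sets did not overlap in either genotype. The difference was -0.35 (SE 0.05, adjusted p = 0.00549, limma), a 1.27-fold higher level in replicates 1 to 3. It was called without any single array, with an adjusted p of at most 0.0164. Ndufb3, another accessory subunit of that arm, fell from a mean of 8.95 ± 0.20 to 8.45 ± 0.21 (SD, n = 6 each), a difference of -0.51 (SE 0.12, adjusted p = 0.0337), and here the sets overlapped slightly.

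Sdhd, a membrane anchor of complex II, gave 8.75, 8.74 and 8.77 in wild-type replicates 1 to 3 and 8.60, 8.64 and 8.63 in the same Zbtb32-/- replicates. In replicates 4 to 6 it gave 8.32, 8.42 and 8.07, and 8.36, 8.42 and 8.11. All 6 later-numbered arrays lay below all 6 others, and the difference was -0.40 (SE 0.11, adjusted p = 0.0415, limma). In complex III, Uqcrfs1, the Rieske iron-sulfur protein that takes electrons from ubiquinol, fell from 10.39 ± 0.14 to 9.92 ± 0.21 (SD, n = 6 each), a difference of -0.47 (SE 0.11, adjusted p = 0.0289), again with no overlap.

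Uqcr11 had the largest difference of all members. Its values in replicates 1 to 3 were 10.73, 10.43 and 11.10 in wild-type and 11.13, 11.08 and 10.99 in Zbtb32-/- cells. In replicates 4 to 6 they were 10.12, 10.12 and 10.31, and 10.44, 10.54 and 9.56. The sets overlapped only through wild-type 2 and the Zbtb32-/- 4 and 5 arrays. The difference was -0.73 (SE 0.17, adjusted p = 0.0275, limma), or a 1.66-fold higher level in replicates 1 to 3. Its second probe set gave only -0.24, so the size depends on the probe set, and with the mean of both the adjusted p was 0.0561. Atp5mpl, a small membrane subunit of the ATP synthase, had the smallest called difference, -0.27 (SE 0.07, adjusted p = 0.0473), with 11.92 ± 0.11 against 11.64 ± 0.16 (SD, n = 6 each).

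**Figure D5:**
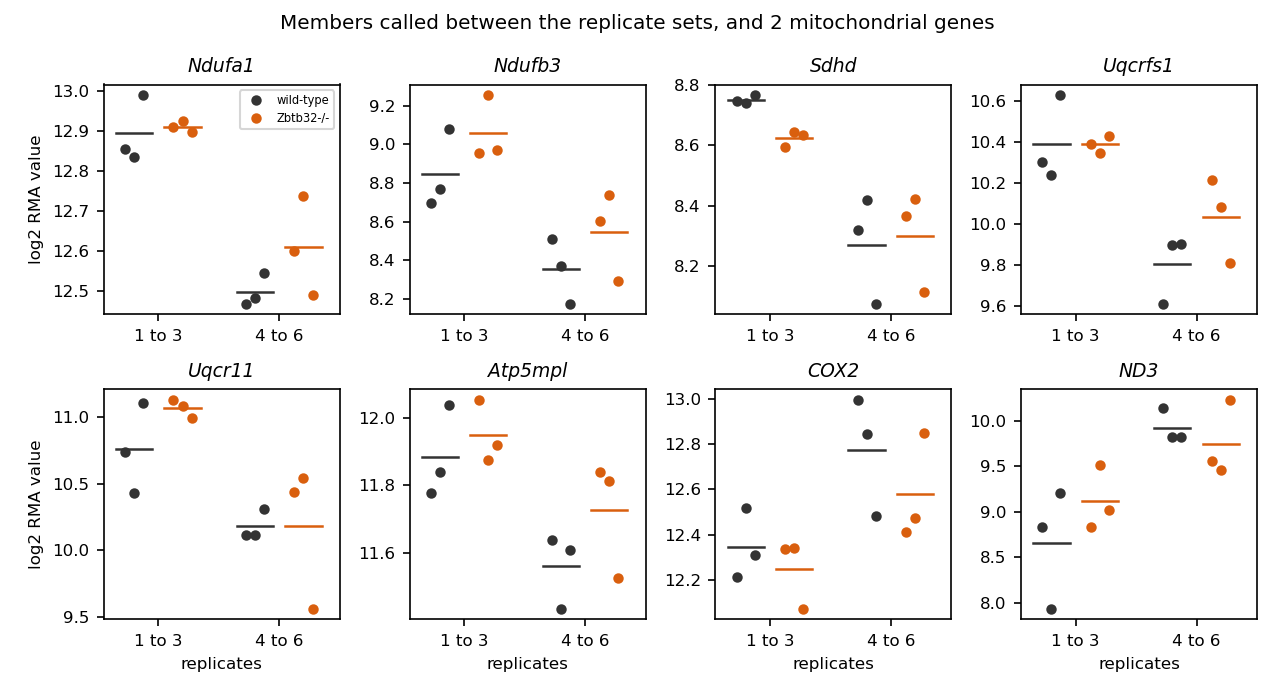
Log2 RMA values of the 6 called members and of the mitochondrially encoded COX2 and ND3, by replicate set and genotype (points are arrays, lines the means of 3). The members are lower and both mitochondrial genes higher in replicates 4 to 6, in each genotype.

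Apart from Ndufa1, each call was lost without some single array. Leaving out 1 of the 12 arrays at a time, Uqcr11 stayed below 0.05 for 5 arrays (wild-type 2 and 6, Zbtb32-/- 4, 5 and 6), and for the 7 others its adjusted p went up to 0.0616. Uqcrfs1 stayed for 5 (wild-type 2 and 6, Zbtb32-/- 2, 4 and 5; at most 0.0638) and Ndufb3 for 4 (wild-type 2 and 4, Zbtb32-/- 4 and 5; at most 0.0724). Sdhd and Atp5mpl stayed only without Zbtb32-/- 4 or 5, with an adjusted p of up to 0.089 and 0.0958 otherwise. After renewed quantile normalization Ndufb3 (adjusted p = 0.0550), Sdhd (0.0636) and Atp5mpl (0.0858) were not called with limma, and Atp5mpl was not called without the variance trend either. Over the single-array omissions the difference of Sdhd lay between -0.44 and -0.35 and that of Uqcr11 between -0.82 and -0.58.

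The members with the smallest differences were Ndufs5, an accessory subunit of complex I, at 0.00092, Cox6a1, the general form of a complex IV subunit, at 0.010, and Cox7b at -0.016. The sign of Cox6a1 turned under median centring (-0.033). In the c ring, Atp5g3 did not pass (adjusted p = 0.0682) although its sets did not overlap. Atp5g1 and Atp5g2 encode the same mature c subunit and gave -0.28 and -0.14. Cox6a2, the heart and muscle partner of Cox6a1, stood highest, at 0.32 (adjusted p = 0.0870), with 6.98 to 7.21 in replicates 1 to 3 and 7.20 to 7.74 in replicates 4 to 6. Of the other isoforms, the muscle form Cox7a1 gave -0.30, Cox8b 0.14, Cox4i2 -0.045, Ndufa4l2 -0.10, Cox6b2 0.018 and Cox8c 0.015, while their general partners Cox7a2, Cox8a, Cox4i1, Ndufa4 and Cox6b1 gave -0.14, -0.24, -0.20, -0.11 and -0.16.

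Of the subunits encoded in the mitochondrial genome, the annotation names COX2 and ND3 on single-gene probe sets. They encode a catalytic subunit of complex IV and a core subunit of complex I, and were singled out after their values were seen. COX2 gave 12.22, 12.52 and 12.31 in wild-type replicates 1 to 3 and 12.34, 12.34 and 12.08 in the Zbtb32-/- ones. In replicates 4 to 6 it gave 12.995, 12.84 and 12.48, and 12.41, 12.47 and 12.85. The sets overlapped, and the difference was 0.38 (SE 0.10, adjusted p = 0.0437, limma). ND3 rose by 0.94 (SE 0.23, adjusted p = 0.0341), from 8.89 ± 0.53 to 9.84 ± 0.31 (SD, n = 6 each). Their second probe sets gave 0.34 (adjusted p = 0.0546) and 0.60 (adjusted p = 0.0206). Both thus lay opposite to the nuclear subunits of the same complexes, and the difference between the 2 directions was not tested. Leaving out single arrays, COX2 stayed below 0.05 without wild-type 2 or 6 or Zbtb32-/- 4 or 5 and ND3 without wild-type 2 or 3 or Zbtb32-/- 2, 4 or 5, and otherwise reached up to 0.0984 and 0.0750. After renewed quantile normalization or median centring COX2 was not called. Between the genotypes they gave -0.15 and 0.14 with no call. Their second probe sets gave -0.13 and -0.17, so the sign for ND3 depends on the probe set.

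Among genes that serve the mitochondrial genome and the assembly of the complexes, a few were called lower in replicates 4 to 6, to be read against the 4.47% called lower among all genes. Of 18 tested regulators 16 were negative (median -0.23) and 2 were called lower, Tfam, which packs and transcribes mitochondrial DNA, at -0.63 (adjusted p = 0.0280), and Tfb1m, a methyltransferase of the mitochondrial ribosome, at -1.01 (adjusted p = 0.0457). Of 37 assembly factors 34 were negative (median -0.27), with 3 called lower: Tmem126b of complex I at -0.96 (adjusted p = 0.0130), Cox18 of complex IV at -0.68 (0.0230) and Sco1, which delivers copper to complex IV, at -0.45 (0.0398). Higd2a and Higd1a, small proteins bound to complex IV, were called at -0.51 and -0.39 with limma. Of these, Tmem126b and Higd2a stayed called without any single array. Cox18 was lost without wild-type 1 or Zbtb32-/- 3 (adjusted p up to 0.0537) and Tfam without wild-type 3 or 4 or Zbtb32-/- 2, 3 or 6 (up to 0.0583). Sco1 stayed called only without wild-type 2 or 4 or Zbtb32-/- 5 (otherwise up to 0.0901), Higd1a only without Zbtb32-/- 4 or 5 (up to 0.103) and Tfb1m only without wild-type 4 or 5 or Zbtb32-/- 5 (up to 0.0964). The wild-type 4 value of Tfb1m, 6.94, lay far below the other wild-type arrays (8.55 to 9.40). Higd1a was also lost after renewed quantile normalization, without the variance trend, with array weights and with the mean of its probe sets, where its difference was -0.095 (adjusted p = 0.742). Tfb1m was also lost after renewed quantile normalization. These 7 genes were chosen for their calls.

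Some markers of other cells were called higher in replicates 4 to 6. The background over all genes is 2.05% called higher and 4.47% called lower. Over the arrays of replicates 1 to 3 the mean of the 11 neutrophil markers ran from 7.99 to 10.87, and over replicates 4 to 6 from 10.03 to 12.44, with 5 called higher. The 9 monocyte and macrophage markers ran from 6.85 to 7.86 and from 7.34 to 9.28 (2 called higher), and the 7 B cell markers from 6.80 to 7.84 and from 7.35 to 8.36 (1 called higher). The 8 plasma cell markers ran from 11.33 to 11.52 and from 10.75 to 11.30, with 2 called lower and no overlap. T and NK cell markers ran from 5.57 to 6.00 and from 5.68 to 6.79, basophil and mast cell markers from 4.85 to 5.00 and from 5.01 to 6.28, and erythroid markers from 6.23 to 8.09 and from 6.67 to 7.46. Of these, 1 basophil and mast cell marker was called higher, 0 T and NK cell and 0 erythroid markers were called, and 8 of 9 erythroid markers were negative. Their part in the lower subunit values and the higher mitochondrial ones was not tested.

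The genotype difference itself did not differ detectably between the replicate sets. With the interaction term in limma, 0 members were called, against a background of 0%, with a smallest adjusted p of 0.998 and 0 members at an unadjusted p under 0.05, where 579 of all genes had one. The interaction was positive for 56 of 88 members, with a median of 0.041, but the median was -0.061 without wild-type 3, -0.019 without Zbtb32-/- 4 and -0.018 after renewed quantile normalization. The members with the smallest p were Cox6a2 (-0.36, SE 0.20), Sdhc (0.38, SE 0.21), Atp5pb, a subunit of the peripheral stalk (0.27, SE 0.17), Cox8c (-0.24, SE 0.15) and Ndufaf2 (0.57, SE 0.36). For Sdhc the genotype difference was 0.054 in replicates 1 to 3 and 0.43 in replicates 4 to 6, and for Ndufaf2 0.082 and 0.65.

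Where a member had several probe sets they mostly ran the same way. Of 17 such members, those of Atp5md, Cox7b and Uqcrb differed in sign between the genotypes, and all gave a negative difference between the replicate sets with each probe set. The 6 probe sets of Atp5l, the g subunit of the ATP synthase, gave genotype differences between 0.16 and 0.18. For 9 members the RefSeq gene table also lists copies named as pseudogenes, 16 in all, whose transcripts these probe sets may not tell apart.

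The members moved together, and whether other bright genes moved with them by array was not tested. The promoters of the members were read for motifs that are known from respiratory genes. RefSeq windows of build GRCm38.p6, 250 bases before to 50 after each start, were found for 73 of the 89 members. The NRF1-type motif GCGCATGC was in the windows of 12 members (16.4%) and of 3.05% of 27025 genes, searched on both strands; its reverse complement GCATGCGC overlaps it where both occur. The ETS-type motif CGGAAG was in 33 members (45.2%) against 18.8% of genes, and the YY1-type motif AAGATGGC in 10 (13.7%) against 3.19%. The SP1-type motif GGGCGG was in 45.2% against 38.2% and TATAAA in 8 members against 15.7% of genes. This background was every gene with a window, whether or not it passed the filter. Motif shares in genes of like brightness were not taken. Of the called members, Uqcr11 had the NRF1-type and the ETS-type motif, Sdhd the ETS-type and the SP1-type motif, and Ndufa1, Ndufb3 and Uqcrfs1 none of the first 3, while Atp5mpl had no window.

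To show what such a promoter looks like, the 250 bases before the start are printed 5′ to 3′ along the gene for the called members with a motif there, Uqcr11 and Sdhd, and for Cox6a1 and Atp5g2, chosen for the NRF1-type motif; capitals mark the NRF1-type and ETS-type motifs.
Uqcr11: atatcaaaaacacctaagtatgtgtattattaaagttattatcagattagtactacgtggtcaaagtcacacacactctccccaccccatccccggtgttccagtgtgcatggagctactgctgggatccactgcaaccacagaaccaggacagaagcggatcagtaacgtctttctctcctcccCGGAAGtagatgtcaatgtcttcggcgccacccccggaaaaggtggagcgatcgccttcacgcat
Sdhd: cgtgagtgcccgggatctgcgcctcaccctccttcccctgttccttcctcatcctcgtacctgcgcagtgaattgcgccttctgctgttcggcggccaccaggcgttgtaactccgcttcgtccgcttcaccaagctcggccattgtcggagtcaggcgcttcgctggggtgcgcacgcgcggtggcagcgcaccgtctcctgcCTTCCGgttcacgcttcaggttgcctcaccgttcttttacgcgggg
Cox6a1: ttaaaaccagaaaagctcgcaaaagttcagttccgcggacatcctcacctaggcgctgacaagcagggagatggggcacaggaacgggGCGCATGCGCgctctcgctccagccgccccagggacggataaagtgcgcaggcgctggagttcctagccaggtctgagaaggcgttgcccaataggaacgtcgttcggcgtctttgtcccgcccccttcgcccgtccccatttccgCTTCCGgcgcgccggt
Atp5g2: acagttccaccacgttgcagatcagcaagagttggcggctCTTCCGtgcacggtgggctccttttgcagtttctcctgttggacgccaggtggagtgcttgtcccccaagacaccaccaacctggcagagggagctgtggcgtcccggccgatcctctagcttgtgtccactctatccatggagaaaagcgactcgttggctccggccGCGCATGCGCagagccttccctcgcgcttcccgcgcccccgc
These stretches are chr10:80406822-80407071 for Uqcr11, chr9:50603850-50604099 for Sdhd, chr5:115348959-115349208 for Cox6a1 and chr15:102671048-102671297 for Atp5g2, all on the minus strand. In Cox6a1 the motif begins 162 bases before the start and in Atp5g2 42 bases, and both hold it together with its reverse complement as a run of 10 bases. The NRF1-type motif of Uqcr11 lies outside the printed stretch. Members with the NRF1-type motif had a median difference between the replicate sets of -0.18, as did those without it, and medians between the genotypes of 0.15 and 0.16. For the ETS-type motif the replicate set medians were -0.154 with and -0.205 without it. For the YY1-type motif they were -0.238 with and -0.16 without it. The SP1-type motif gave -0.157 and -0.198, and TATAAA gave -0.134 and -0.191. None of these gaps was tested. A match is a run of letters in this window and shows no binding.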

How the data were processed

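RNA of 12 sorted plasma cell samples was hybridised to Affymetrix mouse gene arrays, 1 array per sample. The deposited values are log2 expression values of 35556 probe sets, made with Affymetrix Expression Console and RMA, per the submitters' processing notes; versions, and whether all arrays were normalized together, are not given in the sources used here. Probe sets were named through the platform annotation, and those naming 1 gene were kept (21789 probe sets, 19938 genes). Each gene was represented by its probe set with the highest mean. Genes whose mean over all arrays lay under the 25th percentile of all 21789 probe set means (5.49) were left out, which left 14993. Array medians ran from 6.28 to 6.43, so the deposited arrays do not share 1 distribution, and a second quantile normalization moves the differences.

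Groups came from the labels, which give genotype and replicate numbers 1 to 6. limma 3.58.1 in R 4.3.3 (lmFit, eBayes with a variance trend) was fitted for Zbtb32-/- minus wild type, for replicates 4 to 6 minus 1 to 3 with genotype in the model, and for their interaction. P-values were adjusted by Benjamini-Hochberg over all genes, with a threshold of 0.05, and p-values measure the spread between these samples. Second probe sets were fitted and adjusted over all probe sets. The scripts were tested on simulated data. Python 3.11.15, pandas 2.3.3 and matplotlib 3.10.9 were used for summaries and figures.

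The members and lists were chosen with earlier results of these data known. Genes named with values were the members that passed the threshold, those with the smallest p or the most extreme difference in a class, and the corresponding genes of each list. Members shown for contrast, and COX2 and ND3, were named after their values were seen. The alternatives tried were a second quantile normalization, centring on the array median, a stricter filter or none, the mean of all probe sets, no variance trend, array weights, a replicate block, single arrays left out, and each genotype or replicate set alone.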

Additional observations from a re-analysis of the deposited data

Results flagged for a closer look

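Within each genotype, the array farthest from the others was examined for 114 groups of 6 arrays, and 12 of them lay far apart by Dixon's criterion. Chance gives about 1 in 20 such groups when they are independent and not picked by their values. Here class means were examined beside their own members, and some genes had been named for extreme values. That rate therefore does not apply to the 12, which are given as a description. Zbtb32-/- 6 lay below its group in the mean of the complex I core (9.41, others 9.81 to 9.98), of the complex I accessory subunits (10.12, others 10.45 to 10.60) and of complex V (10.69, others 10.96 to 11.07). It was also low for the core subunits Ndufs1 (7.50, others 7.94 to 8.06) and Ndufs7 (9.22, others 9.65 to 9.82). Wild-type 3 lay above its group in the mean of complex IV (11.76, others 11.39 to 11.52).

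Single genes accounted for the rest. Zbtb32-/- 4 was high for Cox6a2 (7.46, others 7.11 to 7.21) and low for Cox7a2l (10.45, others 10.67 to 10.80), and Zbtb32-/- 3 was high for Cox8c (6.26, others 5.97 to 6.08). Wild-type 2 was high for Ndufaf6 (7.77, others 6.81 to 7.12). Zbtb32-/- 2 was high for Pdss2, an enzyme of ubiquinone synthesis (7.07, others 5.62 to 6.07), and wild-type 4 was low for Tfb1m (6.94, others 8.55 to 9.40).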

How the results depend on the processing

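The absence of a genotype call among the members held under all alternatives run, and the members' median difference stayed positive, with 0.065 after renewed quantile normalization, 0.159 after median centring, and 0.093 (without wild-type 4) to 0.20 (without wild-type 3) over the single-array omissions. Over all genes 1 gene was called within replicates 4 to 6. Leaving out single arrays, the highest values of Atp5pb and Ndufa9 were 0.096 and 0.078, the lowest of Cox7a2l and Sdhd -0.14 and -0.14. Named members near 0 changed sign: Atp5pb to -0.034 (renewed quantile normalization), -0.014 (without wild-type 4) and -0.093 (replicates 1 to 3); Ndufa9 to -0.055 (quantile), -0.067 (without wild-type 4), -0.048 (without Zbtb32-/- 3) and -0.033 (replicates 4 to 6). Cox7a2l changed to 0.0046 (without wild-type 3) and 0.011 (replicates 1 to 3), Ndufs1 to 0.011 (replicates 4 to 6), Cycs to -0.10 (mean of probe sets) and Sdhd to 0.0025 (without wild-type 3), 0.021 (without Zbtb32-/- 6) and 0.029 (replicates 4 to 6).

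Between the replicate sets 670 genes were called lower and 307 higher, and in all 1579 were called with no filter, 23 in wild-type arrays alone and 2 in Zbtb32-/- arrays alone, where 0 members were called in each. Leaving out single arrays gave 240 to 1193 genes and 1 to 8 members. Of the members, 4 were called after renewed quantile normalization and 9 with array weights. Cox6a1 turned to -0.033 (median centring), -0.014 (without wild-type 2 and 6), -0.035 (wild-type arrays), -0.0062 (without wild-type 6), -0.0071, -0.013 and -0.00040 (without Zbtb32-/- 2, 4 and 5), and lay at most at 0.044 over the single-array omissions. The interaction gave 1 gene with array weights and 0 to 1 without single arrays. The cause of these changes was not tested.

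With the genotype means taken off, same-numbered replicates correlated at 0.468, 0.019, 0.22, 0.034, 0.135 and 0.156. Only replicates 1 and 6 correlated best with their own number. The labels do not say whether the numbers pair the samples, and these correlations cannot settle it. With the replicate number as a block, 0 genes were called between the genotypes (914 at an unadjusted p under 0.05), the members' median was 0.134, and the interaction called 0 genes.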
